A study of Mus musculus with 8 samples.

Results

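Neuronal and exocytosis transcripts in mouse iris muscle were followed through 9 genes: *Syt1*, *Unc13c*, *Unc13a*, *Rims1*, *Snap25*, *Rbfox3*, *Rbfox1*, *Nptx2* and *Anks1b*. These are 9 of the 22873 genes counted in nuclei from the iris and the adjoining part of the ciliary body. They were chosen by name, with their levels by cell type and their differences between dilated and untreated irises already known. Both kinds of value are therefore given as a description. For the dilated irises, the thresholds of the fit over all genes serve to mark the members with the larger differences, and they are no test of them. The difference between constricted and untreated irises was tested on the assumption that it played no part in the choice. Earlier results of these data were known, so this assumption cannot be checked.

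Nuclei were profiled by single nucleus RNA-seq (snRNAseq) in 8 libraries, each from a separate pool of 5 or 6 irises of female albino mice 6 to 8 weeks of age, so that the library and not the mouse is the replicate. For the 2 dilated libraries the eyes received phenylephrine (5%, an alpha-adrenergic agonist) with cyclopentolate (1%, a muscarinic antagonist) every hour, in the dark. For the 3 constricted libraries they received pilocarpine (5%, a muscarinic agonist) every hour, in the light. Irises were taken after 6.5 hours, and the 3 untreated libraries received no drops. The light level differed along with the drug, and these cannot be told apart.

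Neurons release transmitter when vesicles fuse with the plasma membrane. SNAP25 is one of the SNARE proteins that pull the membranes together, UNC13 proteins prime vesicles for this step, RIMS1 is a scaffold of the active zone where it takes place, and synaptotagmin-1 (SYT1) is the calcium sensor that triggers it. The other members act elsewhere in neurons: RBFOX1 and RBFOX3 (the antigen NeuN) are splicing regulators, neuronal pentraxin-2 (NPTX2) is a secreted protein that gathers glutamate receptors, and ANKS1B is a scaffold of the postsynaptic density. The iris has a radial dilator muscle and a circular sphincter muscle next to the pupil, both smooth muscles that receive autonomic nerves. The authors' annotation divides their nuclei into dilator muscle, sphincter 1 and sphincter 2, beside iris pigment epithelium (iris PE), ciliary body (CB), ciliary body epithelium (CBE), stroma 1, stroma 2, leukocytes and endothelial cells.

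Promoters are printed for *Syt1*, found mostly in sphincter muscle, and for *Unc13c* and *Anks1b*, whose levels differed between dilated and untreated dilator muscle. Each sequence holds 250 bases before to 50 after an annotated start (RefSeq, GRCm38.p6), 5′ to 3′ on the strand of the gene, and capitals mark the letters TGACG. The *Syt1* promoter lies at chr10:109010926-109011225 (minus strand), that of *Unc13c* at chr9:73968988-73969287 (minus strand), and those of *Anks1b*, on the plus strand, at chr10:89873259-89873558 (first) and chr10:90576441-90576740 (internal, shown as the one of 4 later *Anks1b* entries that holds TGACG).
Syt1: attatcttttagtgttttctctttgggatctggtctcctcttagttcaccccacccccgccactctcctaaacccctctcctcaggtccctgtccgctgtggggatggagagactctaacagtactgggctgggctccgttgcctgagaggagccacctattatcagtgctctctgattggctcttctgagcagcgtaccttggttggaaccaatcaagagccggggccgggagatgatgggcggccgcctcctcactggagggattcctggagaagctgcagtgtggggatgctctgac
Unc13c: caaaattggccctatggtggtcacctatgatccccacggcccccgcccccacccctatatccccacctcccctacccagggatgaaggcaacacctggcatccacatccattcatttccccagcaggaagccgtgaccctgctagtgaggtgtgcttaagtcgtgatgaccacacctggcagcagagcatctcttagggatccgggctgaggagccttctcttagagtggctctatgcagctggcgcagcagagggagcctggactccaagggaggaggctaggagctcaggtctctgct
Anks1b first: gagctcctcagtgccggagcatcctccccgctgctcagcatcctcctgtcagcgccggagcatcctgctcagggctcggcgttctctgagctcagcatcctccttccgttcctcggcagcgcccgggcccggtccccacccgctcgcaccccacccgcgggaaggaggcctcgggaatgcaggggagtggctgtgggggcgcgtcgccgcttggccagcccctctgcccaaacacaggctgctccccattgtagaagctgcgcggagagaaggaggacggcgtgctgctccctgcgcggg
Anks1b internal: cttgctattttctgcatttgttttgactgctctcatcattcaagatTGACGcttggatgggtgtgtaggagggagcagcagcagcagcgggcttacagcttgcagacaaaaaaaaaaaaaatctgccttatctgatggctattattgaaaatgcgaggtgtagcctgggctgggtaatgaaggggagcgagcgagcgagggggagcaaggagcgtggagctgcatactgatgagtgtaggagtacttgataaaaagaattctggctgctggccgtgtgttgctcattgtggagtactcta
The promoter table matched 7 of the 9 members, with 13 entries. Each was searched on both strands for TGACGTCA (the cAMP response element, in 1.79% of all 32851 promoters), TGANTCA (the AP-1 motif, in 7.81%), TGACG (found inside the cAMP response element, in 20.8%) and the CArG box (in 1.63%). TGACG occurred once in the internal *Anks1b* promoter printed here and 3 times in that of *Unc13a*, and the other 11 entries held none of the 4 motifs. A match of letters is a description and not a binding site.

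The libraries held 34357 nuclei, with 5189437 to 25136427 unique molecular identifiers (UMIs) per library and a median of 2775 to 4697.5 UMIs per nucleus. The marker genes *Adra1a*, *Nos1* and *Chrm2* were highest in dilator muscle, and *Chrm3*, *Ttn*, *Ctnna3* and *Myh11* in sphincter 1. Sphincter 2 held *Adra1a* and *Myh11* transcripts at the second highest level and *Chrm3* at a lower one, and CBE was not the highest cell type for any of its 3 markers. Iris PE was highest for its marker *Zic1*, but its markers *Otx1* and *Pax6* were highest in CBE and CB. No marker of CB was checked. Untreated replicate 1 and dilated replicate 1 shared 63 nucleus barcodes, of which 59 had the same cell type in both, against at most 18 in the other pairs of libraries. The shared barcodes had a median of 5479 UMIs in untreated replicate 1 and 960 UMIs in dilated replicate 1. Without the 400 nuclei whose barcode occurs in another library, the same 6 differences of the members between dilated and untreated irises passed the thresholds. Processing in 5 batches and sequencing in 2 runs are described, without stating which library was in which.

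Levels are UMIs of a gene per 1000000 UMIs (CPM) of a cell type in a library. The 9 members fell into several patterns in untreated irises. *Syt1*, *Rbfox3* and *Nptx2* were highest in sphincter 1, *Unc13c* in dilator muscle and sphincter 2, *Rims1* in CBE and *Anks1b* in CB. *Rbfox1* was spread over muscle and several other cell types, and *Unc13a* and *Snap25* were close to 0 in every cell type. Counts over all libraries ranged from 122 UMIs for *Snap25* to 82939 for *Unc13c*.

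**Figure D1:**
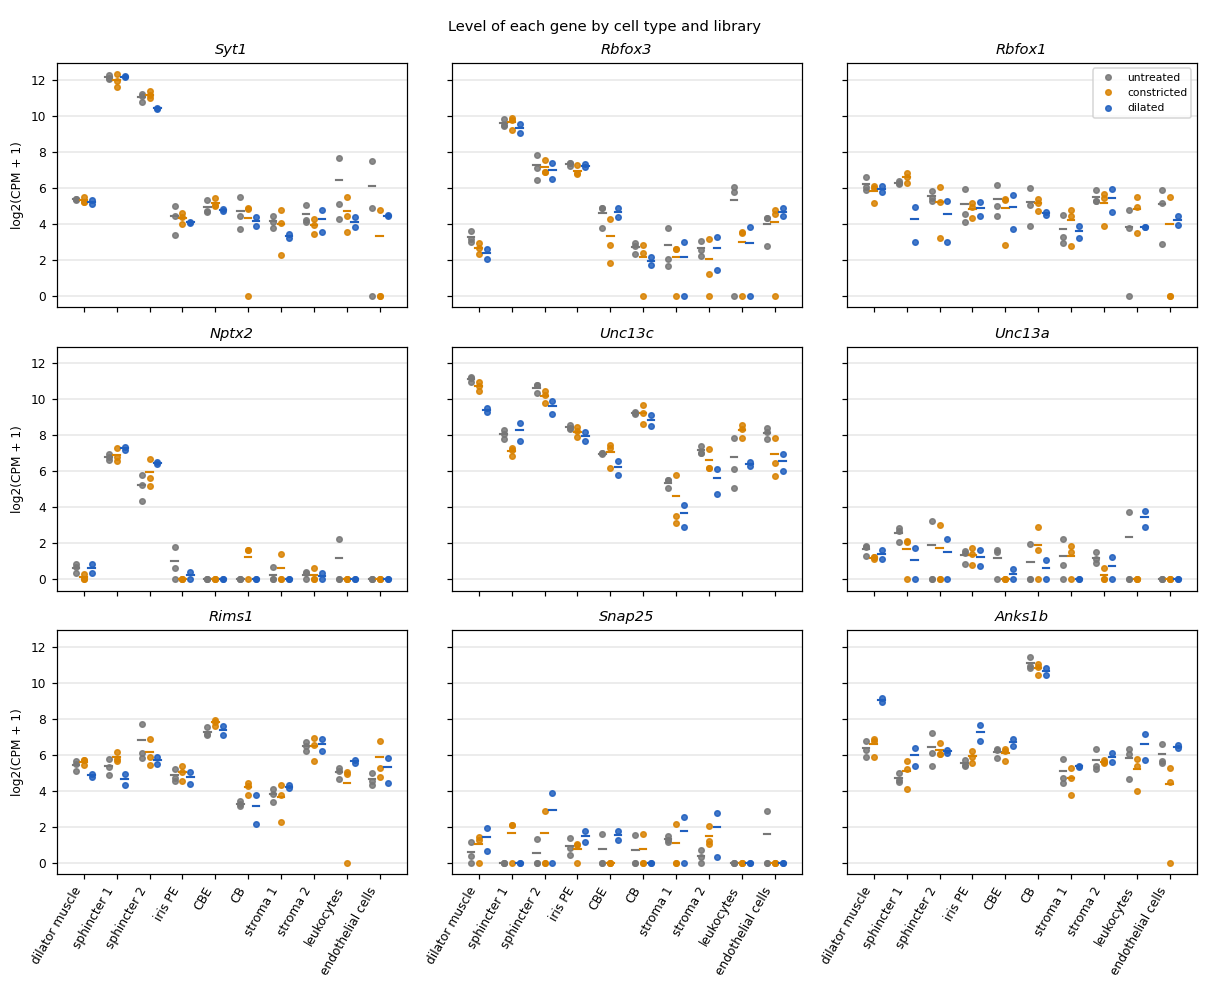
Each panel shows one gene as log2(CPM + 1) in the 10 cell types, with 1 point per library (untreated grey, constricted orange, dilated blue) and a bar at the mean of each condition. *Syt1*, *Rbfox3* and *Nptx2* are highest in sphincter 1, *Unc13c* is highest in dilator muscle, where the dilated libraries lie lowest, and *Anks1b* is highest in CB and is raised in the dilated libraries of dilator muscle.

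*Syt1* (chr10:108497650-109010982, minus strand; coordinates of genes are those of GENCODE vM21 for mm10) was, like *Nptx2*, found mostly in the sphincter. In sphincter 1 its level was 4855, 4211 and 4425 CPM in the 3 untreated libraries, and in sphincter 2 it was 1713, 2212 and 2412 CPM. The ranges of the sphincter clusters did not overlap, and all untreated libraries of the other cell types lay far below both. Dilator muscle had 41.1, 38.4 and 41.0 CPM, and iris PE had 30.9, 9.35 and 20.6 CPM. The sphincter clusters together held 87.9% of the 23151 *Syt1* UMIs of all libraries. Untreated replicate 2 had 205 CPM in leukocytes and 177 CPM in endothelial cells, the highest values outside the sphincter. Without nuclei called as doublets these became 121 and 0 CPM, while sphincter 1 in that library rose to 4786 CPM.

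The share of nuclei with a *Syt1* UMI gave the same picture at equal depth. After each untreated nucleus was thinned to 1000 UMIs, 89.8% of sphincter 1 nuclei had at least 1 *Syt1* UMI (97.8% before thinning), and so did 67.2% of sphincter 2 nuclei (88.9% before). The median was 4 UMIs per 1000 in sphincter 1 and 2 in sphincter 2, and one nucleus in 10 of sphincter 1 reached 10 or more. Dilator muscle had a share of 3.79% (10.7% before thinning) and iris PE 1.36% (5.08% before), which measures how often a nucleus of another type carries a *Syt1* UMI. At their full depth the medians of these cell types were 3332 UMIs per nucleus in sphincter 1, 3460.5 in sphincter 2, 3410 in dilator muscle and 3173 in iris PE. Thinning left out 229 of 14365 untreated nuclei with fewer than 1000 UMIs.

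**Figure D2:**
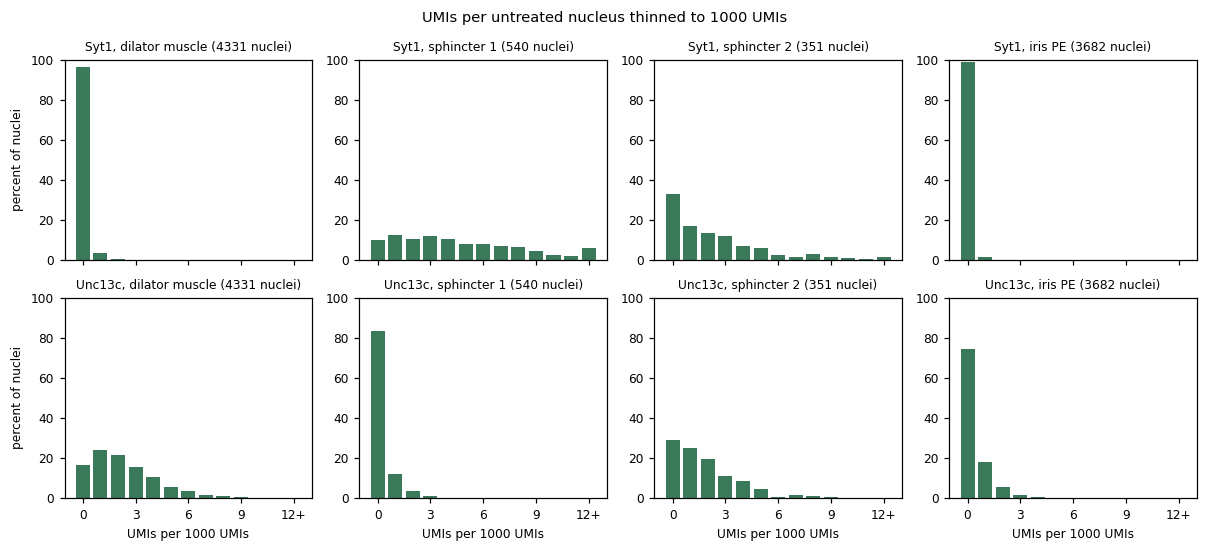
Bars give the percent of untreated nuclei with 0, 1, 2 and up to 12 or more UMIs of *Syt1* (top) or *Unc13c* (bottom) after thinning to 1000 UMIs, in 4 cell types. In sphincter 1 the *Syt1* counts reach a median of 4 and a highest value of 36, whereas 96.2% of dilator nuclei have 0, and for *Unc13c* 16.3% of dilator nuclei have 0.

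*Unc13c* (chr9:73479422-73968966, minus strand), which codes for the priming factor MUNC13-3, had the most UMIs of the members, 83.1% of them in the 3 muscle types. Its level in untreated dilator muscle was 1981, 2299 and 2398 CPM, followed by sphincter 2 with 1292, 1763 and 1776 CPM. The ranges of these neighbours did not overlap. CB came next with 584, 621 and 618 CPM, and then iris PE with 323, 385 and 344 CPM. Sphincter 1 had 220, 319 and 273 CPM, so that the sphincter cluster with the highest *Syt1* level had the lowest *Unc13c* level of the 3 muscle types. At 1000 UMIs per nucleus, an *Unc13c* UMI was found in 83.7% of dilator, 70.9% of sphincter 2, 39.2% of CB, 25.7% of iris PE and 16.7% of sphincter 1 nuclei.

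*Unc13a* and *Snap25* were barely detected. *Unc13a* (chr8:71624417-71671757, minus strand), which codes for MUNC13-1, had 178 UMIs over all libraries and at most 13.2 CPM in any library and cell type. Its untreated level was 2.49, 2.67 and 1.42 CPM in dilator muscle and 5.38, 3.19 and 6.32 CPM in sphincter 1. *Snap25* (chr2:136713453-136782428, plus strand) had 31 UMIs over the untreated libraries, of which 11 were in dilator muscle and 0 in sphincter 1. A count of 0 allows up to 1.56 CPM in untreated sphincter 1, from 3 counts in the summed UMIs of the libraries and for counting error only. No neighbours in the order of the cell types had ranges apart for either gene.

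*Rims1* (chr1:22286251-22805994, minus strand) was highest in CBE, at 139, 185 and 146 CPM. Sphincter 2 had 211, 68.7 and 56.3 CPM, with untreated replicate 1 above all CBE libraries, and stroma 2 had 105, 90.1 and 74.2 CPM. Neighbours among these 3 cell types overlapped. Dilator muscle was lower than stroma 2 in every library, with 49.9, 34.3 and 44.6 CPM, and sphincter 1 had 53.8, 28.7 and 39.7 CPM.

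Of the splicing regulators, *Rbfox3* (chr11:118489762-118911597, minus strand) was highest in sphincter 1, at 892, 713 and 699 CPM. Iris PE followed with 166, 164 and 147 CPM and overlapped with sphincter 2, at 229, 137 and 86.0 CPM. Dilator muscle was far lower, with 11.2, 7.88 and 6.80 CPM. Because iris PE is a large cell type, 41.4% of the *Rbfox3* UMIs lay in the muscle types. At 1000 UMIs per nucleus, 50.6% of sphincter 1 and 14.0% of iris PE nuclei had a *Rbfox3* UMI, against 0.92% of dilator nuclei. In untreated sphincter 2, 14.0% of the 236 nuclei with a *Syt1* UMI also had a *Rbfox3* UMI, compared with 4.35% of the 115 nuclei without. In untreated sphincter 1 these shares were closer, at 51.3% of 485 nuclei and 43.6% of 55. In constricted sphincter 1 the order was reversed, at 49.2% of 195 nuclei and 54.3% of 35. Nuclei of a library are not replicates, so these shares are a description.

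*Rbfox1* (chr16:5885355-7411526, plus strand) showed no such restriction. It had 75.3, 73.3 and 82.1 CPM in sphincter 1 and 95.4, 58.7 and 64.2 CPM in dilator muscle, and these ranges overlapped. Sphincter 2 was lower than dilator muscle in every library, at 55.0, 37.5 and 43.0 CPM, and overlapped with stroma 2 at 58.0, 38.2 and 37.6 CPM. CBE, CB, endothelial cells and iris PE had means of 41.1, 36.2, 33.0 and 32.9 CPM, with ranges that also overlapped with sphincter 2. Which of dilator muscle and sphincter 1 came first depended on the library, and without untreated replicate 2 or without untreated replicate 3 dilator muscle was the highest.

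*Nptx2* (chr5:144545902-144557478, plus strand) had 581 UMIs, of which 94.5% were in the sphincter clusters. Its level was 124, 112 and 100.2 CPM in untreated sphincter 1 and 55.0, 37.5 and 19.3 CPM in sphincter 2, and these ranges were apart. In the other 8 cell types no untreated library exceeded 3.79 CPM. A UMI was present in 9.81% of sphincter 1 nuclei and 3.70% of sphincter 2 nuclei at 1000 UMIs, compared with 0.0924% of dilator nuclei.

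*Anks1b* (chr10:89873509-90973300, plus strand) was a CB transcript in untreated irises, at 2831, 1952 and 1853 CPM. Every other untreated library lay at or below 147 CPM, the value of untreated replicate 1 in sphincter 2. Dilator muscle had 110, 76.3 and 58.5 CPM, iris PE 52.7, 41.2 and 42.8 CPM, and sphincter 1, the lowest cell type, 21.5, 23.9 and 31.6 CPM. At 1000 UMIs per nucleus 76.9% of CB nuclei had an *Anks1b* UMI and 6.21% of dilator nuclei did.

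The counts include introns, so long genes collect more of them. The locus was longer than 400 kb for 6 of the 9 members, as for 1.60% of the 22511 genes with a length, whose median was 20.2 kb. The exceptions were *Nptx2* (11.6 kb), *Unc13a* (47.3 kb) and *Snap25* (69.0 kb). Per kb of locus and in the cell type where each was highest, the level was 9.66 CPM for *Nptx2* and 8.76 CPM for *Syt1*, both in sphincter 1, and 4.55 CPM for *Unc13c* in dilator muscle. It was 2.01 CPM for *Anks1b* in CB, 1.82 CPM for *Rbfox3* in sphincter 1 and 0.301 CPM for *Rims1* in CBE. *Unc13a* (0.105 CPM), *Rbfox1* (0.0504 CPM) and *Snap25* (0.0306 CPM) were lowest on this scale. *Nptx2*, the shortest member, was thus the highest per kb on average. The SDs over the untreated libraries were 1.01 CPM per kb for *Nptx2* and 0.638 for *Syt1*, so the order of these members is not settled.

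Likeness to other genes was measured as Pearson's r of log2(CPM + 1) over the 10 cell types, from means of the untreated libraries, among genes with at least 20 CPM in some cell type. The points share libraries, and no p-value is given. The genes most like *Syt1* were *Mybpc1* (r = 0.97), *Fam212b* (0.97) and *Cnn1* (0.96), all highest in sphincter 1. For *Rbfox3* they were *Gm15478* (0.94), *Sbspon* (0.89) and *Smyd1* (0.89), and for *Nptx2* *Kcnmb1* (0.99), *Fam212b* (0.98) and *Kcnk3* (0.97), likewise highest in sphincter 1. Those of *Unc13c* were *Napepld* (0.95), *Htr4* (0.95) and *Tmtc2* (0.94), highest in dilator muscle, and those of *Anks1b* were *Gm30275* (0.95), *Gm34609* (0.94) and *Kmt2c* (0.93), highest in CB. *Rbfox1* was most like *Fbf1* (0.94), *Ubxn11* (0.93) and *Map1a* (0.92), and *Rims1* most like *Ltbr* (0.91), *Tmem5* (0.90) and *Ap4m1* (0.90). Between members, r was 0.96 for *Syt1* and *Nptx2*, 0.85 for *Rbfox3* and *Nptx2* and 0.78 for *Syt1* and *Rbfox3*.

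Nerve endings and glia could carry transcripts of these genes, and their markers were measured in the same nuclei. Of 21 markers of autonomic neurons 14 were counted, and their summed level was 24.5 to 54.9 CPM in untreated dilator muscle, 11.2 to 37.6 CPM in sphincter 1 and 35.4 to 55.0 CPM in sphincter 2. In sphincter 1 the noradrenaline transporter *Slc6a2* and the acetylcholine synthase *Chat* were at 0, as were *Nefl*, *Ret*, *Trpv1* and *Calca*. The summed level in dilated irises was 27.1 to 30.2 CPM in dilator muscle, 20.8 to 24.5 CPM in sphincter 1 and 27.3 to 40.7 CPM in sphincter 2, overlapping the untreated range in each. The most abundant of 12 Schwann cell markers was *Pmp22*, with 53.5 to 71.1 CPM in untreated dilator muscle, and the other 11 summed to 41.9 to 57.4 CPM there. Of 15 retinal neuron markers 13 were counted, and *Rbpms*, the most abundant, had 2243 to 2413 CPM in untreated dilator muscle, where the others summed to 63.1 to 69.2 CPM. *Rbpms* was higher still in untreated sphincter 1 (3800 to 4478 CPM) and sphincter 2 (3399 to 3985 CPM), and lower in iris PE (896 to 1258 CPM). Whether any of it came from retinal neurons was not tested. Of 14 skeletal muscle markers 11 were counted, and *Ckm* had 37.6 to 89.3 CPM in untreated sphincter 1. The authors name *Ckm* as a marker of this cluster and localize its protein to the sphincter by immunostaining. *Ckm* therefore does not gauge transcripts of skeletal muscle there.

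Dilated and untreated irises differed in the level of some members, as a description of libraries that were also used to choose them. *Anks1b* was higher in dilated dilator muscle and iris PE and *Nptx2* in sphincter 2. *Unc13c* was lower in dilated dilator muscle and sphincter 2 and *Rbfox1* in sphincter 1. Fold changes are from edgeR on summed UMIs with all 8 libraries in 1 fit per cell type, and a gene was called at an absolute log2 fold change above 0.6 with an adjusted p under 0.05. Of 90 pairs of a member and a cell type, 50 passed the filter on low counts, which kept 8 of the 9 members in some cell type and *Snap25* in none. Of these 50 pairs 6 passed the thresholds, 3 higher and 3 lower, beside 3.34% of all tests over the 10 cell types, and since the members were chosen with these differences known, nothing is read from that count. Without dilated replicate 2, and likewise without untreated replicate 3, 3 pairs passed. The shares over all genes were 13.3% in dilator muscle, 1.95% in sphincter 1, 2.87% in sphincter 2 and 0.595% in iris PE. The median log2 fold change of the 50 pairs was -0.04.

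**Figure D3:**
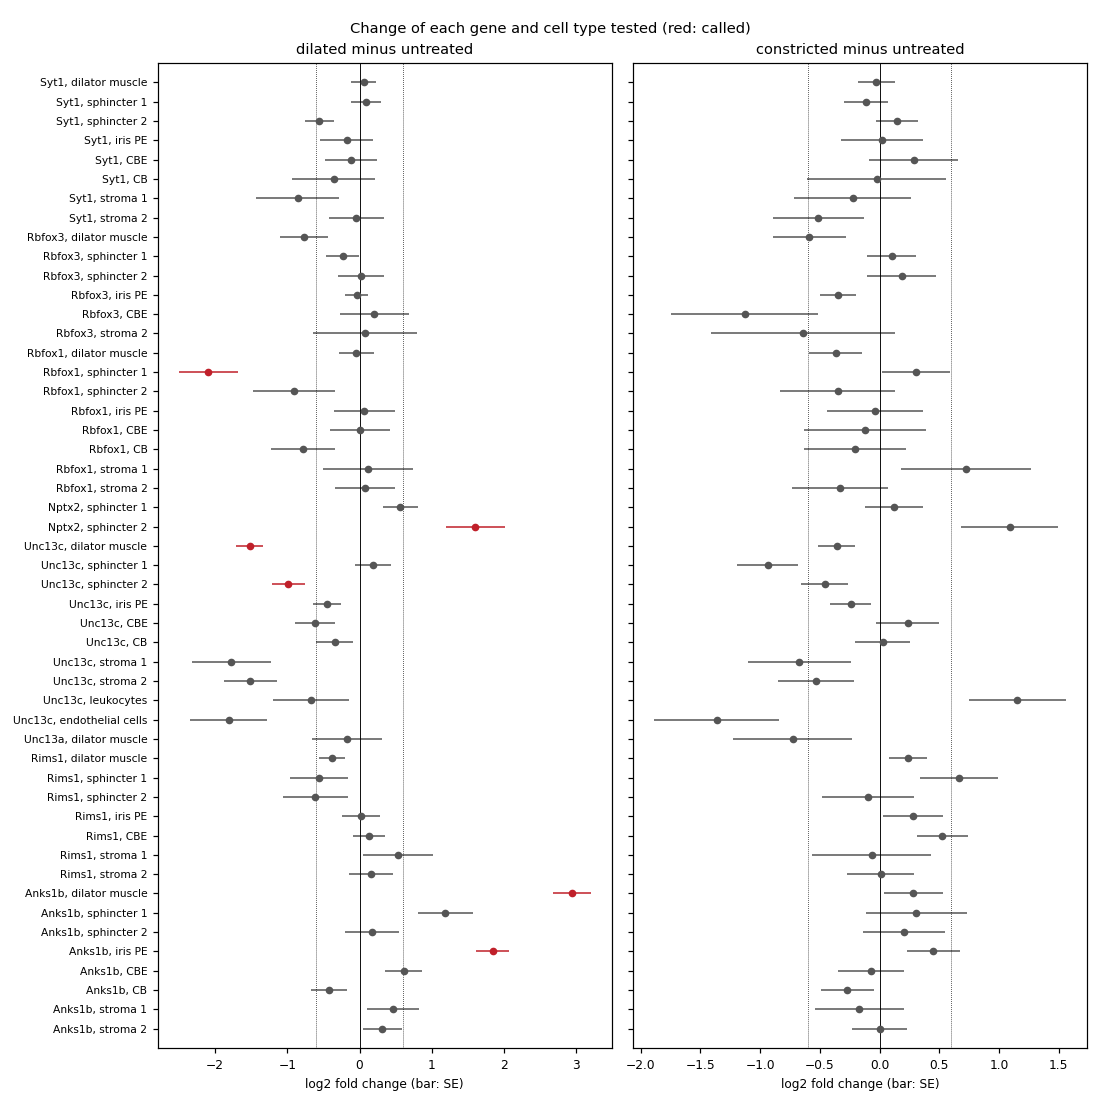
Points are log2 fold changes from edgeR for the 50 pairs of a member and a cell type that passed the filter on low counts, with bars of 1 SE, for dilated (left) and constricted (right) against untreated irises, and dotted lines at a log2 fold change of 0.6 in either direction. Red points are called, 6 on the left and 0 on the right, and the horizontal scales of the panels differ.

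*Anks1b* in dilator muscle was 566 and 502 CPM in the 2 dilated libraries, compared with 110, 76.3 and 58.5 CPM in untreated libraries. Both dilated libraries lay far above all untreated ones. The log2 fold change was 2.94 (SE 0.27), or 7.66-fold, and lay between 2.70 and 3.13 in 15 alternative fits. The share of dilator nuclei with an *Anks1b* UMI at 1000 UMIs was 6.21% in untreated and 32.4% in dilated irises (28.0% and 34.7% in the single libraries). In iris PE, *Anks1b* was 203 and 109 CPM in dilated and 52.7, 41.2 and 42.8 CPM in untreated libraries, a log2 fold change of 1.84 (SE 0.23). The dilated libraries of iris PE differed from each other by more than the untreated ones did, and both were above them.

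Free RNA of dilator nuclei was gauged by dilator transcripts in iris PE. In untreated irises *Adra1a*, *Nos1*, *Chrm2* and *Myh11* were found in iris PE at 3.21%, 2.49%, 1.37% and 4.04% of their dilator level, and in dilated irises at 5.04%, 4.58%, 2.35% and 4.25%. The dilator levels themselves were lower in dilated irises, from 479 to 293 CPM on average for *Adra1a*, 246 to 117 CPM for *Nos1*, 630 to 253 CPM for *Chrm2* and 1931 to 1193 CPM for *Myh11*. The levels in iris PE were not higher, at 15.4 and 14.8 CPM, 6.13 and 5.34 CPM, 8.62 and 5.96 CPM and 78.0 and 50.8 CPM in untreated and dilated irises. The *Anks1b* difference between dilated and untreated irises was 452 CPM in dilator muscle and 110 CPM in iris PE, or 24.4% of the former. The part of free RNA in the iris PE difference was not tested. Free RNA of CB nuclei, the cell type with the highest *Anks1b* level, was not gauged, and the content of CB varied between libraries. CB nuclei numbered 538 of 7321 in dilated replicate 1 and 97 of 3706 in dilated replicate 2. In the untreated libraries, in order of replicate, they numbered 89 of 1479, 163 of 6392 and 94 of 6494. In sphincter 1, *Anks1b* was 84.5 and 41.5 CPM in dilated libraries, both above the untreated 21.5, 23.9 and 31.6 CPM. Its log2 fold change there of 1.19 (SE 0.38) was not called, and without nuclei called as doublets it was 0.46, with 36.8 and 37.3 CPM in dilated libraries. In sphincter 2 *Anks1b* was 77.8 and 68.1 CPM in dilated libraries, within the untreated 147, 41.6 and 68.2 CPM. The mean level there was lower in dilated irises and the fitted log2 fold change was 0.17 (SE 0.37, not called), so no direction is given. In CB, where untreated *Anks1b* was highest, the dilated libraries had 1848 and 1372 CPM, the former just below and the latter well below the lowest untreated value of 1853 CPM (log2 fold change -0.42, SE 0.25, not called).

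*Unc13c* in dilator muscle was 730 and 636 CPM in dilated and 1981, 2299 and 2398 CPM in untreated libraries. The groups were far apart, and the log2 fold change of -1.52 (SE 0.18), a 2.87-fold lower level, lay between -1.63 and -1.45 in 15 alternative fits. An *Unc13c* UMI was found in 83.7% of untreated and 40.4% of dilated dilator nuclei at 1000 UMIs, with 37.1% and 42.0% in the single dilated libraries. In sphincter 2, *Unc13c* was 978 and 593 CPM in dilated libraries, below the untreated 1292, 1763 and 1776 CPM (log2 fold change -0.98, SE 0.23). It no longer passed the thresholds without dilated replicate 2 (-0.72), without untreated replicate 2 (-0.91) and without untreated replicate 3 (-0.92). Sphincter 1 did not share the lower level, with 417 and 205 CPM in dilated libraries and a log2 fold change of 0.18 (SE 0.25). Without nuclei called as doublets the log2 fold change in sphincter 1 was 0.56 (SE 0.24, not called). The dilated libraries then had 414 and 204 CPM and the untreated ones 222, 230 and 195 CPM.

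Outside muscle, *Unc13c* was lower in both dilated libraries than in every untreated one in iris PE, CBE, CB, stroma 1, stroma 2 and endothelial cells, and none of these was called. These cell types come from the same libraries. The share of all genes with ranges apart was not determined, so nothing is read from the number of cell types. In stroma 2 it was 69.8 and 26.3 CPM in dilated and 131, 132 and 169 CPM in untreated libraries (log2 fold change -1.51, SE 0.37). It passed the thresholds in 7 of 15 alternative fits, and the log2 fold change was -2.36 without dilated replicate 1 and -1.06 without dilated replicate 2. In stroma 1 *Unc13c* was 16.7 and 6.67 CPM in dilated and 32.3, 44.7 and 44.4 CPM in untreated libraries (log2 fold change -1.77, SE 0.55), and it passed in 4 of the 15 alternatives. In CPM the difference in stroma 2 was 6.19% of that in dilator muscle, while *Adra1a*, *Nos1*, *Chrm2* and *Myh11* were found in untreated stroma 2 at 2.51%, 3.02%, 1.92% and 3.23% of their dilator level. The part of free dilator RNA in it was not tested.

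**Figure D4:**
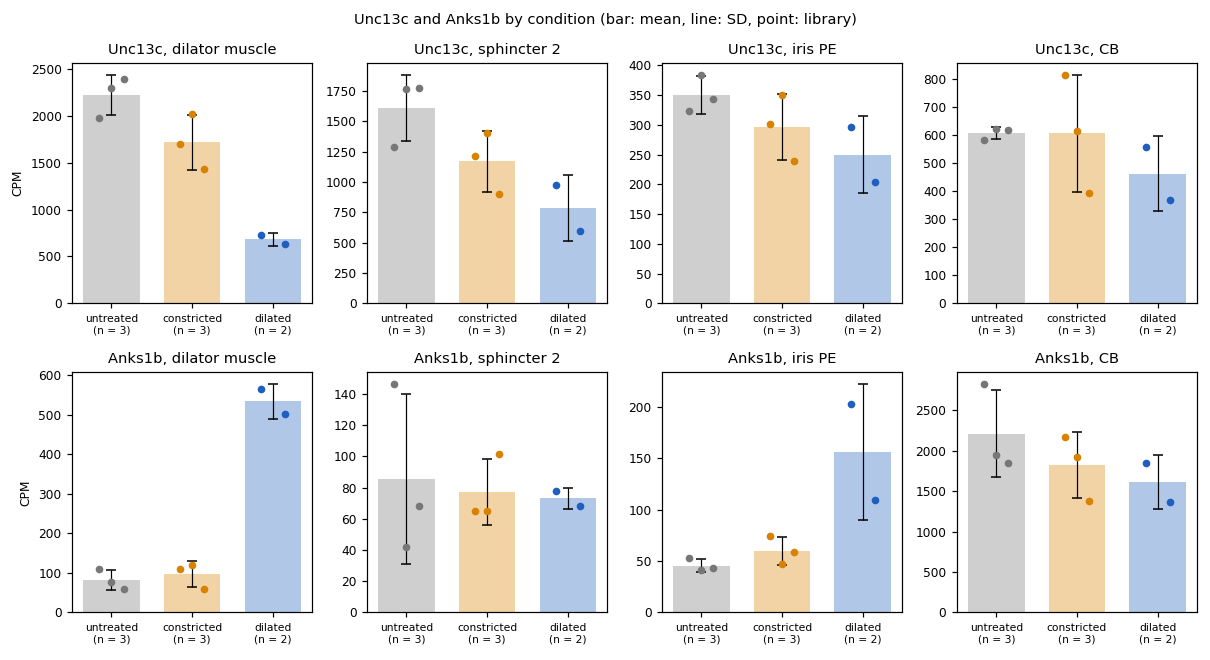
Bars give the mean CPM of *Unc13c* (top) and *Anks1b* (bottom) in 4 cell types for the untreated (n = 3), constricted (n = 3) and dilated (n = 2) libraries, with lines of 1 SD, points for single libraries and a separate vertical scale in each panel. Dilated dilator muscle is lower than untreated in *Unc13c* and higher in *Anks1b* without overlap. In CB the *Anks1b* level of dilated libraries lies below the untreated range, without a call.

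*Unc13c* and *Anks1b* UMIs were also counted together in single dilator nuclei. Of the dilated dilator nuclei thinned to 1000 UMIs, 1562 had an *Unc13c* UMI and 2308 had none, and an *Anks1b* UMI was present in 30.0% of the former and 34.1% of the latter. In untreated dilator muscle these shares were 5.41% and 10.3%.

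In sphincter 1, *Rbfox1* was 30.0 and 6.92 CPM in dilated and 75.3, 73.3 and 82.1 CPM in untreated libraries, and the groups were apart. The dilated values rest on 14 UMIs. The log2 fold change was -2.09 (SE 0.41), and it no longer passed the thresholds without dilated replicate 2 (-1.37) or without untreated replicate 3 (-1.99). The dilated value in sphincter 2 was 37.0 and 6.81 CPM, with dilated replicate 2 the lower one in both clusters. Dilator muscle had 66.3 and 54.3 CPM in dilated libraries, within or just below its untreated range, and a log2 fold change of -0.04 (SE 0.24).

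*Nptx2* in sphincter 2 was 92.6 and 85.2 CPM in dilated and 55.0, 37.5 and 19.3 CPM in untreated libraries, on 50 and 37 UMIs. Both dilated libraries were above the untreated ones, with a log2 fold change of 1.60 (SE 0.41). It no longer passed the thresholds in 4 cases where a single library was left out, namely dilated replicate 1 (1.62), dilated replicate 2 (1.61), untreated replicate 2 (1.82) and untreated replicate 3 (1.14). In sphincter 1 the dilated libraries, at 147 and 166 CPM, were above the untreated 124, 112 and 100.2 CPM without a call (log2 fold change 0.56, SE 0.24).

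Other differences of members between dilated and untreated irises did not pass the thresholds. *Syt1* in sphincter 1 was 4737 and 4560 CPM in dilated libraries, inside the untreated range, with a log2 fold change of 0.09 (SE 0.21). In sphincter 2 it was 1396 and 1346 CPM, below the lowest untreated value of 1713 CPM, and the log2 fold change of -0.56 (SE 0.20) did not reach the threshold. *Rbfox3* in sphincter 1 was 744 and 524 CPM in dilated libraries, against 892, 713 and 699 CPM (log2 fold change -0.23, SE 0.23), and in iris PE its log2 fold change was -0.04 (SE 0.16). In dilator muscle, where its level was low, *Rbfox3* was 5.13 and 3.21 CPM in dilated libraries, below the untreated 11.2, 7.88 and 6.80 CPM. The log2 fold change there was -0.77 (SE 0.33), and it passed the thresholds in 1 alternative, with a term for the library number series (-0.91). *Rims1* in dilator muscle was 30.0 and 26.9 CPM, below the untreated 49.9, 34.3 and 44.6 CPM (log2 fold change -0.38, SE 0.17, not called). *Unc13a* passed the filter in dilator muscle alone, with a log2 fold change of -0.17 (SE 0.48).

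Constriction was compared with no treatment in the same fits. The members were tested here on the assumption that this contrast played no part in their choice. No member was called in any cell type. By edgeR's quasi-likelihood test 0 of 50 pairs passed, and DESeq2 also called 0. An unadjusted p under 0.05 was found for 8 of the 50 pairs (16.0%), compared with 5.25% of all 85092 tests, and pairs of 1 gene in several cell types share libraries. Most of these pairs were *Unc13c*, lower in dilator muscle, sphincter 1, sphincter 2 and endothelial cells and higher in leukocytes. The rest were *Nptx2* in sphincter 2, *Rims1* in CBE and *Rbfox3* in iris PE. The share is therefore no measure of the member set as a whole. Over all genes the shares called were 0.0065% in dilator muscle, 0% in sphincter 1, 0.0897% in sphincter 2, 0.00708% in iris PE and 0.0118% over the 10 cell types, so few that a count of 0 says nothing particular about the members. The untreated libraries are shared with the comparison of dilated irises.

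The smallest adjusted p was 0.290, for *Unc13c* in sphincter 1 (edgeR). Its level was 145, 115 and 159 CPM in constricted libraries and 220, 319 and 273 CPM in untreated libraries, without overlap. The log2 fold change was -0.94 (SE 0.26, 95% interval -1.44 to -0.43), and over 15 alternative fits the adjusted p ranged from 0.0413, without the filter on low counts, to 1.00. Without nuclei called as doublets the constricted libraries had 134, 120 and 143 CPM and the untreated ones 222, 230 and 195 CPM, still without overlap (log2 fold change -0.65, SE 0.25). Of the dilator markers in the same nuclei, doublets included, *Adra1a* was 22.3 CPM on average in untreated and 10.8 CPM in constricted irises. *Nos1* was 13.1 and 5.49 CPM, and the ranges of both overlapped. Without doublets *Adra1a* was 5.42, 5.85 and 29.9 CPM in untreated and 14.9, 6.33 and 6.97 CPM in constricted libraries. *Nos1* was then 10.8, 3.90 and 2.14 CPM in untreated and 14.9, 0 and 0 CPM in constricted ones. *Chrm2* was 315 and 334 CPM with doublets included. Untreated sphincter 1 held it at 50.0% of its dilator level, so it does not gauge dilator transcripts there. The part of dilator transcripts in the *Unc13c* difference was not tested. In dilator muscle *Unc13c* was 1698, 2025 and 1434 CPM in constricted libraries and overlapped with untreated ones (log2 fold change -0.36, SE 0.16, adjusted p = 1.00 by edgeR). In leukocytes it was 323, 385 and 230 CPM on 78 UMIs, above the untreated 33.1, 227 and 68.1 CPM (log2 fold change 1.15, SE 0.41, adjusted p = 0.806 by edgeR). Muscle transcripts moved along with it in leukocytes, of which 7.49% were called as doublets. *Nos1* was 8.84 CPM on average in untreated and 52.4 CPM in constricted irises, *Adra1a* 11.4 and 38.4 CPM and *Myh11* 128 and 314 CPM, whereas *Chrm2* was 60.5 and 50.7 CPM. Without doublets *Unc13c* in leukocytes was 168, 385 and 177 CPM in constricted and 33.1, 102 and 35.5 CPM in untreated libraries (log2 fold change 1.85, SE 0.52, adjusted p = 0.655 by edgeR). Their part in the difference was not tested.

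For the other members an approximate interval of the difference gives a rough idea of what could have been missed. The 95% intervals here and above are a normal approximation from the SE, which is too narrow for so few libraries. *Rims1* in sphincter 1 had an interval of 0.03 to 1.30, although its unadjusted p was 0.053 by edgeR. *Syt1* in sphincter 1 had a log2 fold change of -0.12 (95% interval -0.48 to 0.24), with 3986, 5096 and 3132 CPM in constricted libraries. *Anks1b* in dilator muscle was 110, 120 and 58.5 CPM in constricted libraries, which spanned almost the same range as untreated ones, with a log2 fold change of 0.28 (95% interval -0.20 to 0.76). *Rbfox3* in sphincter 1 was 941, 878 and 597 CPM, with a log2 fold change of 0.10 (95% interval -0.30 to 0.50). For *Rbfox1* in sphincter 1 the log2 fold change was 0.31 (95% interval -0.25 to 0.86), with 75.7, 96.8 and 113 CPM. *Nptx2* in sphincter 2 was 48.7, 36.1 and 101 CPM, with constricted replicate 3 above the others, and a log2 fold change of 1.09 (SE 0.40, 95% interval 0.30 to 1.88, adjusted p = 0.575 by edgeR). *Rims1* in CBE was 232, 197 and 244 CPM, all above the untreated 139, 185 and 146 CPM (log2 fold change 0.53, SE 0.21, 95% interval 0.11 to 0.94, adjusted p = 0.619 by edgeR).

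Lists of related genes place the members among their families. Their genes were not picked for how they moved, but earlier results of these data were known when the lists were chosen. The lists hold 188 genes, of which 183 were counted: SNARE and fusion proteins, active zone and priming factors, synaptotagmins, vesicle proteins, splicing and RNA-binding factors, pentraxins with AMPA receptors, and postsynaptic scaffolds. Transcripts of all 7 lists were present in iris muscle and in every other cell type of untreated irises. Some lists were higher in a cell type outside muscle than in dilator muscle. The SNARE list summed to 2352 to 2527 CPM in stroma 1 and 2172 to 2212 CPM in dilator muscle. The list of pentraxins and AMPA receptors summed to 1558 to 1947 CPM in CB and 433 to 462 CPM in dilator muscle. The postsynaptic list summed to 3857 to 4427 CPM in CBE and 2785 to 3249 CPM in dilator muscle. Sphincter 1, with 2959 to 4011 CPM of the postsynaptic list, overlapped with CBE. Vesicle proteins and synaptotagmins were highest in muscle. Vesicle proteins summed to 3495 to 3720 CPM in dilator muscle and 2544 to 2652 CPM in iris PE. Synaptotagmins summed to 1616 to 1933 CPM in sphincter 2, where *Esyt2* alone had 1436 CPM on average, and 1250 to 1478 CPM in stroma 1. For the remaining lists muscle overlapped with other cell types. The active zone list summed to 1972 to 2140 CPM in dilator muscle, 1958 to 2224 CPM in CB and 1771 to 2224 CPM in CBE. Splicing and RNA-binding factors summed to 5250 to 6147 CPM in sphincter 2 and 4971 to 5892 CPM in leukocytes. In dilator muscle the highest were the vesicle protein synaptoporin (*Synpr*, 1482 ± 91.6 CPM, SD, n = 3), the scaffold *Dlg2* (1348 ± 58.0 CPM), the RNA-binding factor *Celf2* (1160 ± 19.7 CPM), the tomosyn *Stxbp5l* (743 ± 97.9 CPM), *Rab27a* (380 ± 7.93 CPM), the synaptotagmin-like *Sytl2* (265 ± 5.64 CPM) and the AMPA receptor subunit *Gria4* (230 ± 33.6 CPM), each the first of its list. In sphincter 1 they were *Rbm24* (1871 ± 103 CPM), the adhesion protein neuroligin-1 (*Nlgn1*, 1262 ± 156 CPM), the extended synaptotagmin *Esyt2* (1011 ± 5.77 CPM), *Synpr* (830 ± 199 CPM), *Rab3c* (451 ± 68.8 CPM), *Stxbp6* (398 ± 35.3 CPM) and *Grip2* (67.5 ± 22.7 CPM). After *Esyt2*, the highest genes of the synaptotagmin list in sphincter 1, which leaves out *Syt1* itself, were *Sytl2* (47.3 CPM on average) and *Syt2* (42.9 CPM).

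In dilated dilator muscle, 13 of 143 tested genes of these lists were called higher and 8 lower. That share of 14.7% was close to the 13.3% of all genes. The genes called higher included *Rab3b*, a GTPase of secretory vesicles (45.1 to 228 CPM on average, log2 fold change 2.47, SE 0.19), and *Cadps*, a priming factor of dense-core vesicles (301 to 1091 CPM, 2.05, SE 0.17). *Sytl3* (2.40, SE 0.19), *Nptxr*, the receptor of neuronal pentraxins (2.94, SE 0.44, at 0.759 CPM in untreated libraries), *Homer1* (2.44, SE 0.24) and the splicing factor *Nova1* (1.89, SE 0.20) were also higher, as were the vesicle proteins *Sv2c* (1.69, SE 0.43) and *Amph* (0.60, SE 0.17), the splicing factor *Mbnl2* (0.85, SE 0.16) and the SNARE *Stx3* (0.75, SE 0.18). Those called lower included *Synpr* (1482 CPM on average in untreated and 495 and 505 CPM in dilated libraries, log2 fold change -1.38, SE 0.19), *Gria4* (230 to 70.4 CPM, -1.53, SE 0.20), *Nlgn1* (794 to 299 CPM, -1.23, SE 0.17), the SNAREs *Vamp1* (-0.93, SE 0.17) and *Vamp5* (-0.85, SE 0.21), and the UNC13 relative *Baiap3* (5.80 to 0.996 CPM, -2.43, SE 0.46). Changes in both directions occurred within the active zone and priming list, with 5 of 27 genes higher and 3 lower.

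In sphincter 1, 0 of 79 tested genes rose and 3 fell (3.80%, beside 1.95% of all genes). They were *Dlgap1* (1071 to 348 CPM, log2 fold change -1.57, SE 0.24), *Grip2* (-2.00, SE 0.46) and *Sv2b* (-0.85, SE 0.22). In sphincter 2, 1 of 84 rose and 2 fell (3.57%, beside 2.87%). These were *Cadps* (82.1 to 446 CPM, log2 fold change 2.33, SE 0.25), *Synpr* (1161 to 544 CPM, -1.03, SE 0.23) and *Nlgn1* (520 to 236 CPM, -1.11, SE 0.26), each of which was also called in the same direction in dilator muscle. With constriction 0 of 306 tests of these lists over the muscle types were called by edgeR and 0 by DESeq2, and 26 (8.50%) had an unadjusted p under 0.05, compared with 5.06% of all tests in these cell types.

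**Figure D5:**
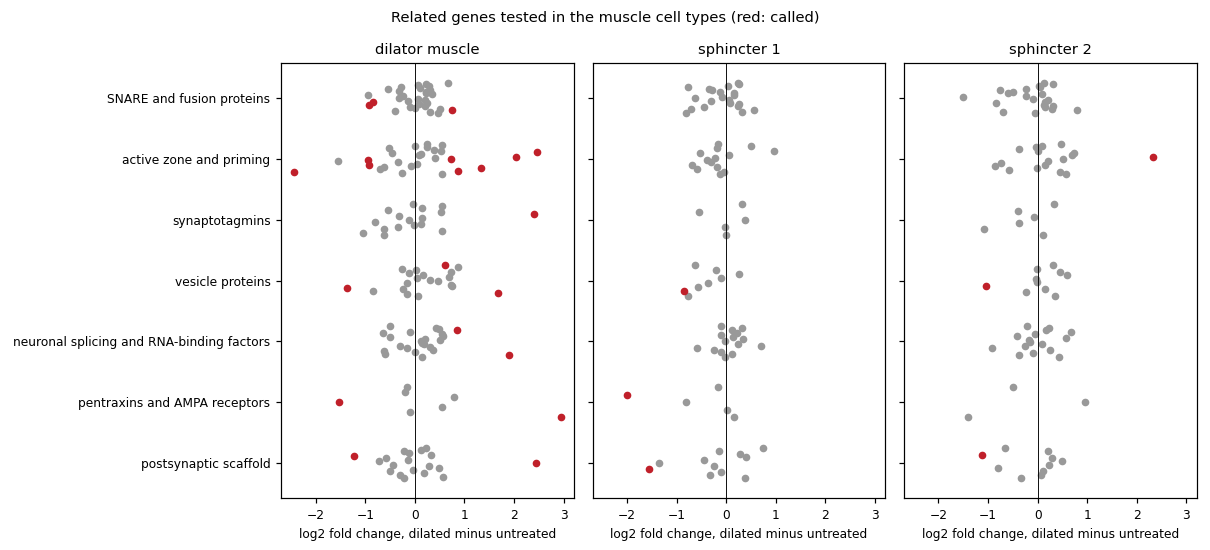
Each point is a gene of the 7 lists tested in dilator muscle (143 genes), sphincter 1 (79) or sphincter 2 (84), placed by its log2 fold change between dilated and untreated irises, with called genes in red and vertical offsets within a list for legibility only. Called genes lie on both sides of 0 in dilator muscle (13 higher, 8 lower), and few are called in the sphincter clusters (3 in each).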

How the data were processed

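Single nucleus RNA-seq was performed on 8 libraries of mouse iris with the 10x Genomics Chromium 3′ kit (v3). The authors aligned reads to exons and introns of mm10 with Cell Ranger 3.1.0 and deposited raw counts of UMIs for each gene in each nucleus, together with the cell type, the number of UMIs and genes detected, and the percent of mitochondrial transcripts of each nucleus. Nuclei above 1% mitochondrial transcripts or outside 500 to 6000 transcripts had been taken out, limits that match the genes detected. Their annotation came from Seurat.

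For the present results, the counts of each cell type in a library were added up. Levels are CPM, as mean ± SD (n = libraries) where not given singly. Conditions were compared with edgeR 4.0.16 in R 4.3.3 (TMM, filterByExpr, quasi-likelihood test, two-sided, 1 fit per cell type with all 8 libraries, no replicate block), and p-values were adjusted by Benjamini-Hochberg over all genes tested in the cell type. This replaces the test on single nuclei of the study's methods, whose thresholds were kept. Alternatives were DESeq2 1.42.0 size factors and its Wald test, no filter on low counts, the replicate number or the library number series as a term, Scrublet doublets left out (scanpy 1.11.5), each library left out, and, added after the data were seen, nuclei with a barcode of another library left out. Where 1 dilated library was left out, the other was assumed to vary like the other groups. For shares, nuclei were thinned at random to 1000 UMIs. Scripts were tested on simulated counts, and other steps used Python 3.11.15. Gene positions came from GENCODE vM21 (22511 of 22873 genes matched by name) and promoters from RefSeq.

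The members and the lists of related and marker genes were chosen with earlier results of these data known. All members are named in the text. For likeness, the 3 genes with the highest r are named, and for each list of related genes and muscle type the called genes with the largest changes (up to 3) and, of the 3 with the highest untreated levels, the first or more.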

Additional observations from a re-analysis of the deposited data

Results flagged for a closer look

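Some members lay on opposite sides of the untreated range in different cell types, with every library of the treated group above it in one and below it in another. Whether the effects differ between the cell types was not tested, and the values were chosen as the widest opposite pair of each gene. *Anks1b* in dilated irises was above all untreated libraries in dilator muscle and below all of them in CB, and the log2 fold changes were 3.36 apart. The CB difference was not called (log2 fold change -0.42, SE 0.25). Its dilated values reached 1848 CPM, just below the lowest untreated value of 1853 CPM. The share of all genes with such opposite ranges was not determined. *Rims1* in dilated irises was above the untreated range in stroma 1 and below it in dilator muscle, 0.91 apart on the log2 scale, and neither difference was called. *Unc13c* in constricted irises was above the untreated range in leukocytes and below it in sphincter 1, 2.09 apart on the log2 scale, and neither was called. The muscle transcripts *Adra1a* and *Nos1* were likewise higher on average in constricted leukocytes (38.4 and 52.4 CPM, beside 11.4 and 8.84 CPM in untreated ones). They were lower on average in constricted sphincter 1 (10.8 and 5.49 CPM, beside 22.3 and 13.1 CPM). Without nuclei called as doublets, *Adra1a* there was 14.9, 6.33 and 6.97 CPM in constricted and 5.42, 5.85 and 29.9 CPM in untreated libraries. *Nos1* was then 14.9, 0 and 0 CPM in constricted and 10.8, 3.90 and 2.14 CPM in untreated ones. *Chrm2* went the other way in both cell types, with 60.5 CPM in untreated and 50.7 CPM in constricted leukocytes and 315 and 334 CPM in sphincter 1. *Myh11* was higher in both, with 128 and 314 CPM in leukocytes and 2940 and 3508 CPM in sphincter 1. Untreated sphincter 1 held *Chrm2* at 50.0% and *Myh11* at 152% of their dilator level. Their direction in sphincter 1 therefore does not gauge dilator transcripts from other nuclei. In leukocytes, *Adra1a* and *Nos1* had at most 9 UMIs in any untreated or constricted library. The part of muscle transcripts in this pattern was not tested.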

How the results depend on the processing

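The differences of *Anks1b* in dilator muscle and iris PE and of *Unc13c* in dilator muscle kept their direction and their call in all 15 alternatives, with log2 fold changes from 2.70 to 3.13, 1.37 to 2.19 and -1.63 to -1.45. The 6 calls of members between dilated and untreated irises became 3 to 8 when 1 library was left out, with 3 without dilated replicate 2 and 3 without untreated replicate 3. With DESeq2, 6 were called, 5 of them the same, and *Nptx2* in sphincter 2 had no adjusted p. Calls over the lists of related genes (27 between dilated and untreated irises) numbered 42 with a term for the library number series, and calls over all genes and cell types (2840) became 5335 with that term and 1373 to 3268 with 1 library left out, the lowest counts being 1431 without dilated replicate 2, 1408 without untreated replicate 2 and 1373 without untreated replicate 3. No filter on low counts gave 4011 calls.

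Between constricted and untreated irises, the 0 calls of members became 1 without the filter on low counts. The 0 calls of related genes became 1 with DESeq2 size factors, 3 without the filter, 1 with the replicate block, 2 with the series term, 1 without doublets and 0 to 2 with a library left out (2 without dilated replicate 1, dilated replicate 2 or untreated replicate 1). The 10 calls over all genes became 70 with DESeq2, 299 without the filter, 76 with the replicate block, 87 with the series term and 1 to 51 with a library left out, with 51 without either dilated library, 44 without constricted replicate 1, 19 without untreated replicate 1, 5 without constricted replicate 2, 2 without untreated replicate 2 and 1 without untreated replicate 3. The cause of these shifts was not tested.

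Libraries share replicate numbers, but same-numbered libraries did not deviate alike throughout. In dilator muscle the correlations of their deviations from the group means lay between -0.03 and 0.45, so the numbers were not taken to pair libraries. Libraries of different conditions with neighbouring library numbers (a library number series) did deviate alike there, with correlations of 0.17 to 0.45. Between the first and the last series the correlations were -0.45 to -0.17. The deviations of the 2 dilated libraries mirror each other, so these values are not independent. The main fit has no term for the series, and how the series relate to the processing batches is not stated. With the replicate block, 8 member differences between dilated and untreated irises were called, all 6 of the main fit and *Unc13c* in stroma 1 (-2.07) and stroma 2 (-1.69), and 3681 over all genes.

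Depth limits the rare cell types, the weakest members and the dilated group of 2 libraries. Mean levels in the highest cell type moved by more than 1 SD for *Syt1* (4844 CPM without doublets) and, over all 8 libraries, for *Rbfox1*, *Nptx2*, *Unc13c* and *Rims1*, whereas the highest cell type of 7 members was the same in each alternative other than leaving out untreated replicate 2 or 3.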
